A study of Mus musculus with 6 samples.

Results

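The genes of the JAK-STAT pathway were described here for their occupancy by CDK6: the kinase genes Jak1, Jak2 and Tyk2, the STAT genes Stat3, Stat5a and Stat5b, and the feedback genes Socs1, Socs2, Socs3 and Cish, 10 members out of 22028 protein-coding genes in the annotation. They were chosen by name, and a rule assigned each of them the CDK6 peaks that overlapped its promoters (2000 bp before to 200 bp after any annotated transcript start), its gene body, or the 20000 bp to each side. The data were peak lists from ChIP-seq with an antibody against the HA tag, made in murine pre/pro-B lymphoid cell lines that carried BCR-ABL(p185) and were Cdk6-/-. Into these lines either HA-tagged wildtype CDK6 (CDK6-WT, 2 libraries) or HA-tagged kinase-inactive CDK6 (CDK6-K43M, 2 libraries) had been transduced, so that all 4 libraries shared the oncogene, the loss of endogenous CDK6 and the HA tag, and differed in the CDK6 variant. The tagged proteins were overexpressed, and the labels do not say whether replicates came from separate clones or cultures, so the spread between replicates may be technical. The 2 input libraries of the series were not analysed here.

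In this pathway, a cytokine binds its receptor, the receptor-bound Janus kinases phosphorylate STAT proteins, and the STAT dimers enter the nucleus and bind DNA at gamma-activated sites (GAS), palindromic elements with the letters TTCNNNGAA. The genes of the SOCS family, Cish among them, are classical STAT targets whose products bind receptors or kinases and shut the signal down. In cells transformed by BCR-ABL, STAT5 is known to be active without cytokine. CDK6 itself has no DNA-binding domain and reaches chromatin through other proteins.

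CDK6 occupied the promoter of every one of the 10 members. A promoter region bound by both variants, which by the definition of the study needs a peak in at least 3 of the 4 lists, was found at 10 of 10 members, against 41.3% of all protein-coding genes. All 10 also had one that was present in each of the 4 lists, as did 33.2% of all protein-coding genes. At Tyk2 that region only touched the far edge of the promoter, and with promoters of 500 bp to each side 9 members had one. Genes with more annotated transcript starts have more promoter windows (14 starts at Stat3, 1 at Socs1), and the shares were not adjusted for this. When the lists were shortened to their 10000 strongest peaks, promoter regions bound by both remained at 6 members (Stat3, Stat5a, Jak2, Socs2, Socs3 and Cish) and at 12.7% of protein-coding genes, and promoter regions in all 4 lists at 2 members (Stat5a and Socs2) and at 5.63%. The members' loci held 123 merged regions, and 66 of them were bound by both, against 40.5% of all 56748 merged regions of the series. None of the 123 was unique to CDK6-WT (0.359% of all regions) and 1, at Socs2, was unique to CDK6-K43M (1.26% of all regions). The genes were chosen with earlier results from these lists known, and no test was made of these counts.

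The lists ran from 34729 peaks (CDK6-WT replicate 2) to 39797 (CDK6-K43M replicate 1). The median peak summit held 20 reads in replicate 1 and 18 in replicate 2 of CDK6-WT, and 23 and 15 reads in those of CDK6-K43M, solved from the fold enrichment and p-value of each peak. Replicate number separated the lists more than the CDK6 variant did: 13.0% of all merged regions had a peak in both replicate 1 lists only and 11.0% in both replicate 2 lists only. Values within each replicate number are therefore given beside the pooled ones. The cell type was checked on promoters: 8 of 9 B-lineage marker genes were bound by both variants, compared with 0 of 5 T-cell, 1 of 4 myeloid, 0 of 3 erythroid and 0 of 4 markers of other tissues.

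GAS elements lay within 100 bp of the summit in a part of the regions at the feedback genes, and in neither promoter region of Socs1. In windows from 100 bp before to 100 bp after the strongest summit of each region bound by both (201 bp), a GAS element was present in 12 windows of the member loci, and all 12 were at Socs1, Socs2, Socs3 or Cish, out of 38 windows there. None of the 28 windows at the kinase and STAT genes held one. This split by gene family was made after the matches were seen and was not tested. The windows that carry the element at the promoters of Socs2 and Socs3, and at the strongest non-promoter regions of Socs1 and Cish that hold it, are shown on the forward strand of mm10, with GAS matches in capitals (in the Socs3 window also a GC box, GGGGCGGGG, on the reverse strand at the start of the run). At Cish the promoter matches lie in an annotated UTR, and only the site itself is shown.

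Socs2 promoter, chr10:95416881-95417081: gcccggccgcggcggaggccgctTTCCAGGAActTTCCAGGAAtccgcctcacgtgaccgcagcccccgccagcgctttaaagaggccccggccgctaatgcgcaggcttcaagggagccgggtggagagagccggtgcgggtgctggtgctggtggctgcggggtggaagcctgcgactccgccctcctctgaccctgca

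Socs3 promoter, chr11:117969226-117969426: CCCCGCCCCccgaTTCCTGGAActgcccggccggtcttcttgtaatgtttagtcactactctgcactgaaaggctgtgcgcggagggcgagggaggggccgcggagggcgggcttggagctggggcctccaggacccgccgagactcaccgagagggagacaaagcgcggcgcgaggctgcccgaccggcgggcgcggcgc

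Cish promoter site, chr9:107296762-107296791: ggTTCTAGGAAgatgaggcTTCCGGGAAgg

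Socs1 downstream region, chr16:10772186-10772386: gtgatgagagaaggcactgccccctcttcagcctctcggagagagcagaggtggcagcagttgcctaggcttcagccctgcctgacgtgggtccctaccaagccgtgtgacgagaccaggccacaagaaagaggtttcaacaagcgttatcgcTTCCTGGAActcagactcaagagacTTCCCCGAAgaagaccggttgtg

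Cish downstream region, chr9:107312925-107313125: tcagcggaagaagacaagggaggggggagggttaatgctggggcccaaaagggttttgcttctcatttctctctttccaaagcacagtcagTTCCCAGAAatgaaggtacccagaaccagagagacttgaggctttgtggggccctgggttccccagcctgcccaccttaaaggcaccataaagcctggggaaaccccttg

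At Socs2 the element occurred as 2 identical copies, TTCCAGGAA at chr10:95416904-95416912 and again at chr10:95416915-95416923, centred 73 and 62 bp before the summit on the forward strand. At Cish, 2 copies with different centres flanked the summit, TTCTAGGAA centred at -8 bp and TTCCGGGAA at 9 bp from it. The Socs3 promoter held 1 copy, TTCCTGGAA, at chr11:117969239-117969247. The same letters occurred in the Socs1 downstream window at chr16:10772339-10772347, followed by TTCCCCGAA at chr16:10772364-10772372. In the Cish downstream window TTCCCAGAA was centred at -5 bp from the summit. All of these are letter matches, and no STAT occupancy was measured.

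Over both kinds of region, GAS was present in 3 of 18 windows at member promoters (16.7%), compared with 5.66% of all 10993 promoter windows bound by both. It was present in 9 of the 40 windows in member loci that lay outside any annotated promoter (22.5%), compared with 9.26% of the 11982 such windows over the genome, and in 0 of the 8 windows at promoters of other coding or noncoding genes in the loci. The ETS motif CCGGAAGT was present in 0 member windows, compared with 7.15% of promoter windows and 0.726% of other windows. The NRF-1 motif GCGCATGCG was present in 0 of 18 member promoter windows (3.05% of all) and in 1 of the 40 outside promoters, in an intron of Stat5b at chr11:100814636-100814645, where the motif matched on both strands with an overlap. The GC box was present in 4 of 18 member promoter windows (22.2%, with 11.1% over all promoters) and the CCAAT box, CCAAT, in 5 of 18 (27.8%, with 23.2% over all promoters). The RUNX motif TGTGGT was present in 3 of 18 member promoter windows (16.7%, with 12% over all promoters) and in 8 of the 40 windows outside promoters (20%, with 28.6% over all such windows). All motifs were searched on both strands. The median GC content of the member promoter windows was 59.5%, beside 61.7% of all promoter windows. With 18 and 40 windows these shares are coarse.

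**Figure D1:**
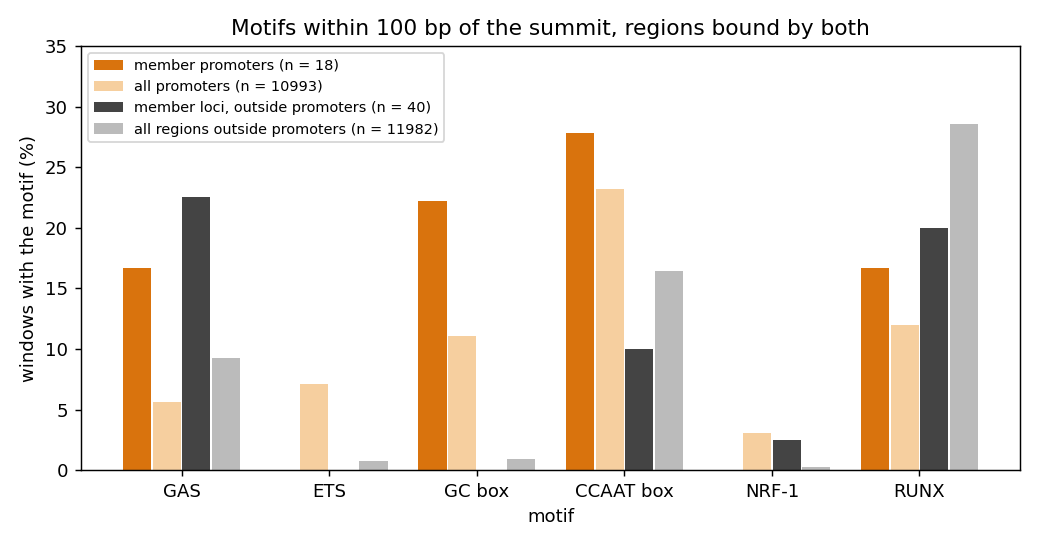
Share of summit windows (percent, y axis) that hold each of 6 motifs (x axis) in regions bound by both variants; dark bars are the windows at member promoters and those in member loci outside any promoter, and pale bars all windows at and outside promoters, with n in the legend. GAS stands at 16.7% and 22.5% in the member windows beside 5.66% and 9.26% over all windows.

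Peak strength was compared as a percentile: each peak was ranked by its −log10 q within its own list, so that 100 is the strongest peak of that list. The strongest promoter peak of the members had a median of 80.1 over the 10 genes (mean of the 4 libraries per gene), compared with 71.7 over the 7486 protein-coding genes with a promoter peak in every list. Socs2 was the strongest member and stood above 87.5% of these genes, whereas Jak1 and Tyk2 were the weakest and stood above 15.6% and 7.39%. Each value is the highest over all promoter regions of a gene. Neither the medians nor these ranks were adjusted for the number of annotated transcript starts.

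**Figure D2:**
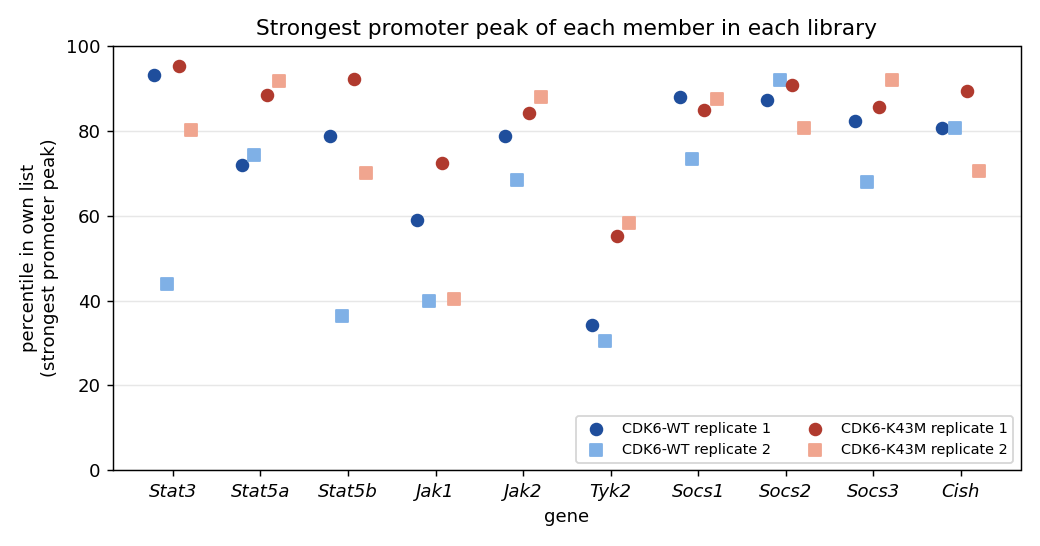
Percentile of the strongest promoter peak in its own list (y axis, 0 to 100) for each member (x axis) in each of the 4 libraries; each point is 1 library, with circles for replicate 1 and squares for replicate 2. The 4 points of Socs2 lie between 80.6 and 92.1, those of Tyk2 between 30.5 and 58.4, and those of Stat3 spread from 43.9 to 95.4.

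Among the kinases, Jak2 (ENSMUSG00000024789.13, chr19:29251828-29313080, forward strand) was the most strongly occupied. Jak2 transmits signals of the erythropoietin, IL-3 and growth hormone receptors. Its strongest promoter peak stood at percentile 78.9 and 68.5 in the CDK6-WT libraries and at 84.3 and 87.8 in the CDK6-K43M libraries. The variants did not overlap (73.7 ± 7.36 and 86.1 ± 2.50, SD, n = 2 each, difference 12.4, exact two-sided permutation p = 0.333). The difference was 5.42 within replicate 1 and 19.4 within replicate 2, and 7.19 without CDK6-WT replicate 2. This p is the smallest that 2 libraries against 2 can give, here and for every other member. The region, chr19:29250769-29252154, had its summit 88 bp before the transcript start, and a neighbouring region, chr19:29252261-29254162, lay over the first part of the gene with percentiles of 73.6, 59.3, 75.2 and 82.3 in the same order of libraries. A further region in all 4 lists, 50512 bp inside the gene, was strong in the replicate 1 lists (88.3 and 89.1) and ranged from 6.72 for CDK6-WT to 71.1 with CDK6-K43M in replicate 2.

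Jak1 (ENSMUSG00000028530.14, chr4:101152367-101265282, reverse strand), the kinase shared by gp130, interferon and common gamma chain receptors, had a single promoter region, chr4:101264593-101265472, with the summit 37 bp before the start. Its percentiles were 59.0 and 39.8 with CDK6-WT and 72.4 and 40.3 with CDK6-K43M. Both replicate 1 values were above both replicate 2 values, and the variants overlapped (49.4 ± 13.6 and 56.4 ± 22.7, SD, n = 2 each, exact permutation p = 0.667).

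Inside the Jak1 gene the order was the opposite. Of 16 merged regions in the gene body outside the promoter, all 16 had a peak in a replicate 2 list and 2 had a peak in a replicate 1 list. The gene body held 1 and 2 peaks in the replicate 1 lists of CDK6-WT and CDK6-K43M, and 17 and 16 in the replicate 2 lists. The strongest region, chr4:101244055-101245564 in an intron 20769 bp from the nearest start, stood at percentile 95.0 with 37 summit reads in CDK6-WT replicate 2 and at 98.3 with 46 reads in CDK6-K43M replicate 2, while neither replicate 1 list had a peak there. Over the whole Jak1 locus, 9 of 21 regions were in both replicate 2 lists only, and 0 were in both replicate 1 lists only. The peaks were there with both CDK6 variants, and what distinguishes replicate 1 from replicate 2 is not given in the labels. This stretch was singled out after its values were seen.

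**Figure D3:**
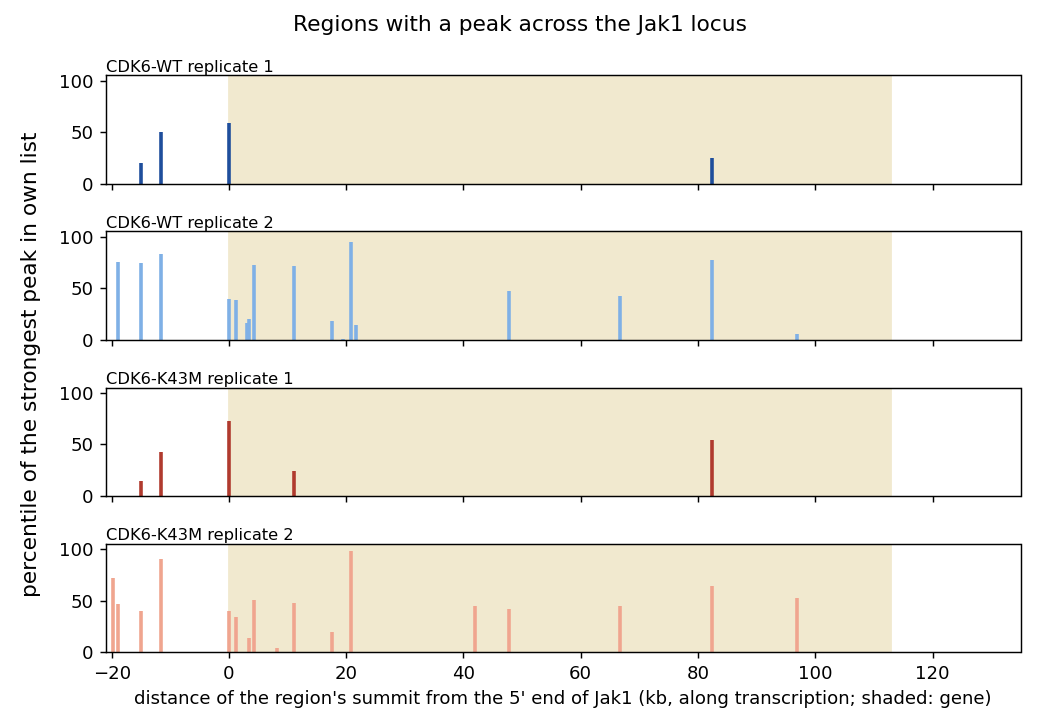
Percentile of the strongest peak in its own list (y axis) for each merged region across the Jak1 locus, by distance of the summit from the 5′ end of the gene (x axis, kb), with 1 panel per library; the gene is shaded and a bar is drawn only where the list has a peak. The replicate 2 lists hold 21 and 22 peaks in the locus, several of them in a shared region, and the replicate 1 lists 4 and 6.

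Tyk2 (ENSMUSG00000032175.11, chr9:21104068-21131243, reverse strand), the kinase of the type I interferon, IL-10 and IL-12 receptors, had the weakest promoter of the members. Its percentiles were 34.3 and 30.5 with CDK6-WT and 55.2 and 58.4 with CDK6-K43M. Here the variants did not overlap (32.4 ± 2.73 and 56.8 ± 2.20, SD, n = 2 each), with a difference of 24.4, 20.9 within replicate 1 and 27.9 within replicate 2 (exact permutation p = 0.333). The 34.3 and 58.4 came from the region at the start and the other 2 values from a region upstream. The region at the start, chr9:21131145-21131714, was in 3 lists and had no peak in CDK6-WT replicate 2. The region in all 4 lists, chr9:21133085-21133552, touched the far edge of the promoter, and its summit lay in an exon of the neighbouring gene Cdc37. A region at the start of Cdc37 itself, chr9:21149540-21150283, stood at 89.9, 69.6, 94.8 and 40.3 in the 2 CDK6-WT and the 2 CDK6-K43M libraries, above both regions in every library but CDK6-K43M replicate 2.

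The STAT genes lie side by side on chromosome 11, so that their loci join into a single stretch. Stat5a (ENSMUSG00000004043.14, chr11:100859351-100885169, forward strand) had the most even promoter of the STAT genes, a region of 541 bp at chr11:100860237-100860777. Its percentiles were 71.9 and 74.4 with CDK6-WT and 88.3 and 91.8 with CDK6-K43M. The groups did not overlap (73.1 ± 1.71 and 90.1 ± 2.47, SD, n = 2 each), and the difference was 16.4 within replicate 1 and 17.5 within replicate 2 (exact permutation p = 0.333). At no other member without overlap between variants were the 2 within-number differences this close to each other.

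Stat5b (ENSMUSG00000020919.11, chr11:100780731-100850724, reverse strand), the paralogue of Stat5a, is transcribed away from it. Its strongest promoter peak stood at 78.9 and 36.3 with CDK6-WT and at 92.2 and 70.1 with CDK6-K43M (57.6 ± 30.1 and 81.1 ± 15.6, SD, n = 2 each, exact permutation p = 0.667). The value of CDK6-K43M replicate 2 came from a region 1604 bp before an internal start, chr11:100823975-100824309. At the main start, chr11:100849831-100850874, that library had a percentile of 2.44 with 8 reads at the summit, and CDK6-WT replicate 2 had 36.3 with 14 reads, against 78.9 with 27 reads and 92.2 with 45 reads in replicate 1. The main start of Stat5b was thus strong in the replicate 1 lists of both variants and weak in both replicate 2 lists. With promoters of 500 bp to each side, which leave out the region at the internal start, the difference between variants at Stat5b turned from 23.5 to -10.3. An intronic region of Stat5b, chr11:100842890-100843669, was strong in every list, at 94.8, 92.0, 95.3 and 93.6, with its summit 7303 bp inside the gene.

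Stat3 (ENSMUSG00000004040.16, chr11:100885098-100939540, reverse strand) had its main promoter region at chr11:100939194-100940104, with the summit 169 bp before the start. The strongest promoter peak stood at 93.2 and 43.9 with CDK6-WT and at 95.4 and 80.2 with CDK6-K43M (68.5 ± 34.9 and 87.8 ± 10.7, SD, n = 2 each, exact permutation p = 0.667). At the main start, CDK6-WT replicate 2 had a percentile of 29.5 with 17 summit reads, compared with 53, 70 and 22 reads in CDK6-WT replicate 1, CDK6-K43M replicate 1 and CDK6-K43M replicate 2, and its 43.9 came from an internal start. The difference between variants was 2.16 within replicate 1 and 36.3 within replicate 2. Without CDK6-WT replicate 2 the pooled difference turned from 19.2 to -5.43. A region 12803 bp before the start, chr11:100951739-100952683, was steadier than the promoter, at 91.5, 89.3, 91.3 and 93.0.

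The feedback genes were the most densely occupied members. Socs1, Socs3, Cish and Socs2 had 25.4, 25.0, 17.1 and 11.1 regions bound by both per 100 kb of locus, whereas the kinase and STAT genes had from 3.18 (Stat3) to 10.0 (Stat5b). All member loci together had 9.09 per 100 kb, compared with 1.40 over the loci of all protein-coding genes. The density was not shared by the further SOCS genes outside the members: Socs4, Socs7, Socs5 and Socs6 had 6.76, 3.95, 1.43 and 0.331. Il21r, a receptor gene, had 18.5, the highest of the other pathway genes and above Cish and Socs2. Gene length enters these values, since a short gene leaves mostly the flanks. By number, a member locus had a median of 6.5 regions bound by both (range 3 to 11), compared with 1 for all protein-coding loci. Stat5b had 11, as many as Socs1 and Socs3, while Socs2 and Cish had 8 each. The other kinase and STAT genes had 3 to 5.

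Socs2 (ENSMUSG00000020027.18, chr10:95385362-95417180, reverse strand), an inhibitor of growth hormone signalling, had the strongest promoter among the members. Its percentiles were 87.2 and 92.1 with CDK6-WT and 90.8 and 80.6 with CDK6-K43M, with overlapping groups (89.7 ± 3.43 and 85.7 ± 7.17, SD, n = 2 each, exact permutation p = 0.667). The merged region over the main start, chr10:95415057-95418645, was 3589 bp wide and was built from 4, 4, 6 and 2 peaks in the 2 CDK6-WT and the 2 CDK6-K43M lists. It is the region whose window holds the tandem GAS copies shown above. The region chr10:95414418-95414641, which overlapped the promoter window of another annotated start of Socs2, was the only variant-unique region of all member loci. Its summit lay 306 bp past the nearest annotated start. CDK6-K43M showed the region in each replicate, at percentiles 34.0 and 56.7 with 17 and 15 summit reads, and CDK6-WT in neither. It lay within 500 bp of the wide promoter region and was no longer separate when peaks that close were merged. A group of regions further inside Socs2, among them chr10:95389043-95389783 at 96.3, 90.2, 94.4 and 92.2, was also bound by both.

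Socs1 (ENSMUSG00000038037.5, chr16:10782240-10785536, reverse strand), the inhibitor of interferon gamma signalling, had promoter percentiles of 87.9 and 73.4 with CDK6-WT and 84.9 and 87.5 with CDK6-K43M (80.6 ± 10.2 and 86.2 ± 1.83, SD, n = 2 each, exact permutation p = 1). The strongest promoter region, chr16:10784780-10786257, covered the start of this short gene and gave both replicate 1 values, whereas the replicate 2 values came from the region before it, chr16:10786360-10786744. Downstream of Socs1, 8 regions were bound by both, and 7 of them lay between 10679 and 19159 bp from its start. The GAS windows of Socs1, 4 in number, were all in this downstream group. The strongest of the group by mean percentile, chr16:10771828-10772727, stood at 72.6 and 76.3 in the replicate 1 lists and at 95.5 and 96.2 in the replicate 2 lists.

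Socs3 (ENSMUSG00000053113.3, chr11:117966079-117970047, reverse strand), the inhibitor of gp130 signalling through STAT3, had promoter percentiles of 82.3 and 67.9 with CDK6-WT and 85.7 and 92.0 with CDK6-K43M. The groups did not overlap (75.1 ± 10.2 and 88.9 ± 4.45, SD, n = 2 each, difference 13.8, exact permutation p = 0.333), but the difference within replicate 1 was 3.42 and that within replicate 2 was 24.1, and without CDK6-WT replicate 1 or 2 the pooled difference was 21 or 6.57. The region, chr11:117968609-117969720, had its summit in an intron 125 bp from a start. The strongest non-promoter region of all member loci lay 19389 bp past the 3′ end of Socs3, at chr11:117946360-117947458, with percentiles of 98.4, 94.3, 97.9 and 94.3 and 53, 38, 60 and 34 summit reads. Just past the end of Socs3, chr11:117964991-117966129 was higher in replicate 2 (98.6 and 99.5) than in replicate 1 (82.6 and 79.4), in both variants.

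Cish (ENSMUSG00000032578.7, chr9:107296026-107302784, forward strand), the founding member of the SOCS family and an inhibitor of STAT5 signalling, had promoter percentiles of 80.7 and 80.6 with CDK6-WT and 89.3 and 70.5 with CDK6-K43M. The groups overlapped (80.7 ± 0.0374 and 79.9 ± 13.3, SD, n = 2 each, exact permutation p = 1). All 4 values came from chr9:107296444-107297093, whose summit lay in an exon 66 bp from a start, between the 2 GAS copies. The region 13870 bp from the nearest Cish start, chr9:107312531-107313662, was among the strongest peaks of every list, at 97.4, 92.7, 99.7 and 92.3 with 47, 41, 77 and 40 summit reads. A further coding promoter bound by both in the Cish locus belonged to the neighbour Mapkapk3.

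**Figure D4:**
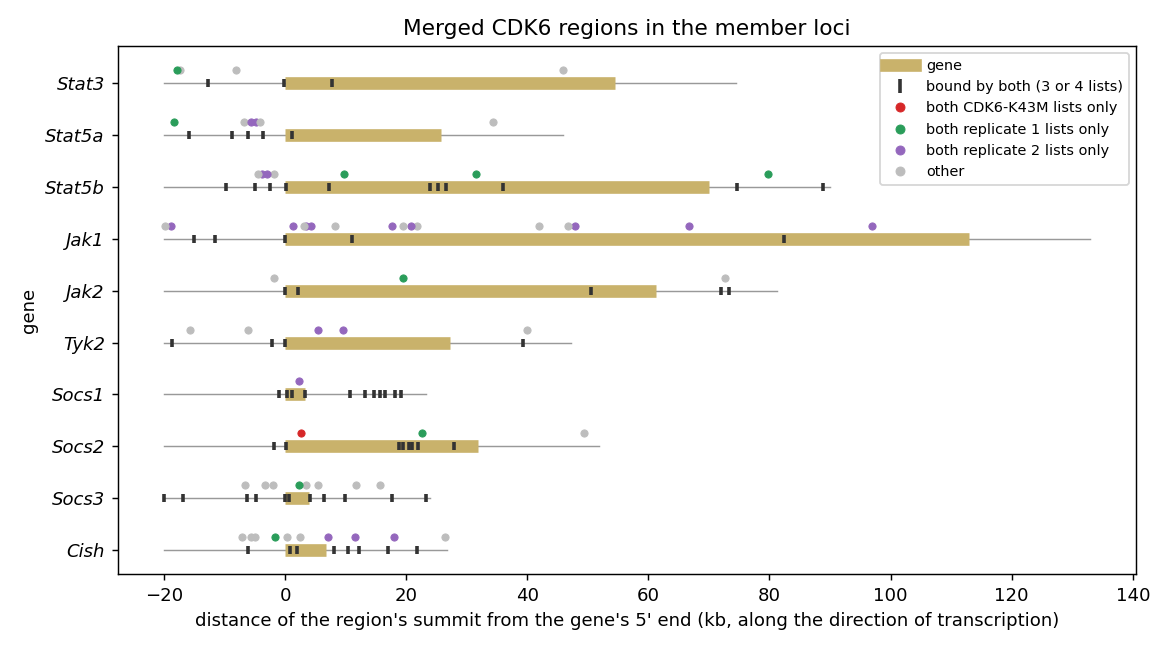
Merged regions along each member's locus, by distance of the summit from the 5′ end of the gene in the direction of transcription (x axis, kb); thick bars are the genes, thin lines the 20 kb flanks, black ticks regions bound by both and dots the others by the lists that hold them. Ticks crowd downstream of Socs1, inside Socs2 and around Socs3 and Cish, and the Jak1 gene carries mainly dots of the replicate 2 lists.

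Of the 66 regions bound by both, 48 lay outside the promoters of the members. Outside any annotated promoter, coding or noncoding, lay 40 of the 66. Over all regions bound by both, 11982 windows lay outside promoters and 10993 at promoters. By place, 18 were at member promoters, 6 at promoters of other coding genes in the loci (Cdc37, Raver1, Kcnh4, Insl6, Pgs1 and Mapkapk3), 14 inside a member gene, 20 downstream and 8 upstream of the nearest member. The downstream regions were at Socs1 (8), Socs3 (5), Cish (5), Jak2 (1) and Stat5b (1). Neighbouring genes share these flanks, so a region is assigned by position and not by target.

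Whether loss of the kinase function changed the occupancy of the pathway was asked of the same regions. The member loci held 84 peaks in replicate 1 and 98 in replicate 2 of CDK6-WT, and 92 and 106 in those of CDK6-K43M (91 ± 9.90 and 99 ± 9.90, SD, n = 2 each). The difference of 8 peaks was the same within replicate 1 and within replicate 2, and was smaller than the spread between replicates (exact permutation p = 0.667). It was 1.5 with lists of equal length and 1 without CDK6-WT replicate 1 or without CDK6-K43M replicate 2, and was 15 without either of the other 2 libraries. These peaks were 0.239%, 0.282%, 0.231% and 0.284% of their lists in the order CDK6-WT replicates 1 and 2 and CDK6-K43M replicates 1 and 2, so that the shares followed replicate number.

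At the level of rank, 10 of the 51 regions with a peak in all 4 lists had both CDK6-K43M percentiles above both CDK6-WT percentiles, compared with 9.8% of all such regions, and 1 had both below, compared with 5.08%. The 10 included 7 of the 14 regions at member promoters: those of Stat5a, Tyk2, Socs1 (chr16:10786360-10786744) and Socs3, both of Jak2, and chr9:107297925-107298355 at Cish. The Tyk2 region only touched the far edge of the promoter, with its summit in an exon of Cdc37. The share of all promoter regions with this order was not computed, so the 7 of 14 have no matching background. The region with lower CDK6-K43M values was chr11:100775807-100776632, beyond the 3′ end of Stat5b. Counted by gene, the strongest promoter peak was higher in both CDK6-K43M libraries at 4 of 10 members (Stat5a, Jak2, Tyk2 and Socs3), compared with 6.72% of protein-coding genes. Within replicate 1 the CDK6-K43M value was above the CDK6-WT value at 9 of 10 members, compared with 58.1% of protein-coding genes, and within replicate 2 at 8 of 10, compared with 49.6%. With 2 libraries per variant no gene can pass the usual threshold, and the number of reads at the median summit was highest in CDK6-K43M replicate 1 and lowest in CDK6-K43M replicate 2; the part of read depth in these counts was not tested.

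By replicate number, 18 of the 51 regions had both replicate 1 percentiles above both replicate 2 percentiles, compared with 41.1% of all such regions, and 15 had both below, compared with 29.7%. None of the 15 was among the 14 member promoter regions in all 4 lists, an order that 15.6% of all promoter regions in all 4 lists had. For the strongest promoter peak, 4 of 10 members had higher values in both replicate 1 lists, compared with 69% of protein-coding genes, and 0 of 10 in both replicate 2 lists, compared with 10.7%.

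**Figure D5:**
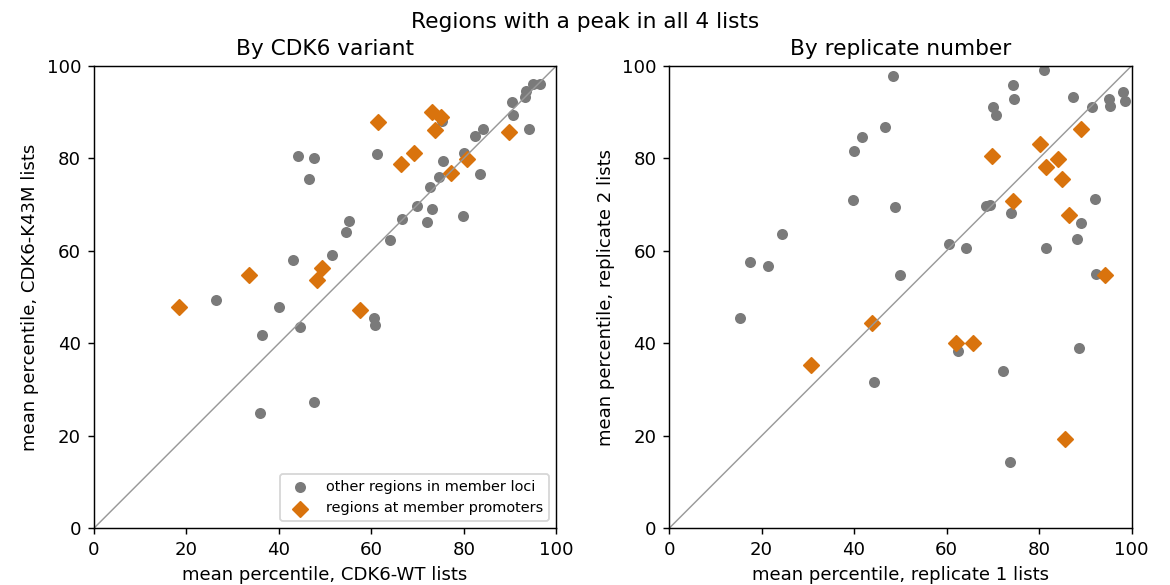
Mean percentile of each of the 51 member regions with a peak in all 4 lists, as CDK6-K43M against CDK6-WT lists (left) and replicate 2 against replicate 1 lists (right), with member promoters as diamonds and the line of equal values in grey. The median distance between the 2 means is 7.53 percentile points by variant and 18.7 by replicate number.

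The other genes of the pathway were read from a list of 54, set beside the members by role. Their promoters were bound by both variants at 42 of 54, compared with 41.3% of all protein-coding genes. A region in all 4 lists was at 38 of 54, compared with 33.2%. By role, the promoters bound by both were those of 3 of 4 further STAT genes, 3 of 4 further SOCS genes, 11 of 11 other negative regulators such as phosphatases and PIAS proteins, 17 of 23 receptors, 8 of 11 STAT target genes and 0 of 1 further kinase. Jak3, the lymphoid kinase, had a promoter peak in CDK6-K43M replicate 1 only, at percentile 1.31. Socs5, Il2ra, Il6st, Epor and Osmr were among the genes without a promoter peak in any list.

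The strongest promoters of this list were those of Bcl2l1, Sh2b3 and Csf2rb. Bcl2l1, the survival gene that encodes BCL-XL and a known STAT5 target, stood at 97.6, 95.8, 92.7 and 96.1 (mean 95.5). Sh2b3, which encodes the JAK2 inhibitor LNK, stood at 99.9, 91.3, 99.6 and 90.4 (mean 95.3), and was the only gene of the list with a variant-unique promoter region, a CDK6-WT-unique one. Csf2rb, the common beta chain of the IL-3, IL-5 and GM-CSF receptors, stood at 85.2, 99.9, 95.6 and 99.8 (mean 95.1). The median of the mean percentiles was 67.9 over the 38 genes of the list with a promoter peak in every library, compared with 80.1 over the 10 members. Both CDK6-K43M libraries were above both CDK6-WT libraries at 2 of these 38 genes and below at 2, compared with 503 and 267 of 7486 protein-coding genes.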

How the data were processed

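Peak lists from 4 anti-HA ChIP-seq libraries (2 CDK6-WT, 2 CDK6-K43M) were used. Their titles gave the variant and the replicate number, and 2 input libraries were not analysed here. Per the study's methods and the submitters' processing notes, the authors trimmed reads (Trimmomatic 0.36), aligned them to mm10 (BWA 0.7.15), filtered them (SAMtools 1.3.1, bedtools) and called peaks per library with MACS2 2.1.0. The deposited lists give per peak a fold enrichment over local background (a ratio), −log10 p and −log10 q values at the summit, a score that is 10 times the −log10 q, and the other value used, the summit offset. They start at a −log10 q of 1.31 to 1.34 and hold no library totals. Summit reads were solved from the fold and −log10 p, and 100% of the peaks gave whole reads within 0.001 of the −log10 p.

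Peaks of all lists that shared 1 bp or more were joined into regions (Python 3.11.15, pandas 2.3.3). Promoters came from GENCODE M21, a later release than the one the authors used. Strongest promoter peaks were taken over the merged regions that touch a promoter. Sequences were read from GRCm38 with pysam 0.24.0, whose bases equalled 100% of 822 RefSeq promoter sequences compared. For differences between variants, an exact permutation test (two-sided) ran through the 6 ways of assigning libraries, with 0.33 as its smallest p (SciPy 1.17.1). Merging, classification and read recovery were tested on simulated lists.

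The members, gene lists, motifs and tests were chosen with earlier results of these data known. The genes named are all members and, of 54 other pathway genes, the 3 with the highest mean percentile, those without a promoter peak (1 of which is not reported here) and those with a variant-unique promoter region. Regions named are each member's strongest promoter region, the 5 strongest non-promoter regions in all 4 lists and the variant-unique regions. Others named, among them neighbours' promoters, Jak3 and regions in runs, were chosen after their values were seen. Alternatives covered peak strength, list length, merging distance, promoter and locus width, the ranking measure, the replicate number as a block and each library left out. The percentile differences were recomputed only for the promoter settings, the ranking measure, the block and each library left out.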

Additional observations from a re-analysis of the deposited data

How the results depend on the processing

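Most results kept their direction: 110 of 134 alternative values did not change sign or, for a count, stayed within 1.5 times. These include the values with replicate number as a block, which equal the main values by construction. With 1 library left out, bound by both also needed a peak in fewer lists, so those counts had little room to fall. With a minimum −log10 q of 5, 6 variant-unique regions were found in the member loci in place of 1. With a minimum of 10 there were 2 such regions, 26 regions bound by both in place of 66, and 6 member promoters with a peak in all 4 lists in place of 10. With the top 10000 peaks per list, 6 member promoters were bound by both (Stat3, Stat5a, Jak2, Socs2, Socs3 and Cish), 2 were in all 4 lists (Stat5a and Socs2), 18 regions were bound by both, and the difference in peaks was -1. That difference was 1.5 with lists of equal length, 4.5 with a minimum −log10 q of 10, and 1 to 15 with each library left out. Stricter lists hold fewer peaks by construction. Merging peaks within 500 bp left 0 variant-unique regions, and gene bodies with promoters alone held 34 regions bound by both. With 1 library left out, variant-unique regions ranged from 8 to 17, since that definition then rests on 3 lists.

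For single members the difference in percentile changed sign under a promoter of 500 bp to each side at Stat5b (-10.3) and Socs1 (-0.241), and when peaks were ranked by fold enrichment at Socs1 (-0.717) and Cish (2.68). With each library left out in turn it ranged from -5.43 to 43.9 at Stat3, -9.12 to 23 at Jak1, -1.71 to 12.8 at Socs1, -9.03 to 1.11 at Socs2 and -10.2 to 8.61 at Cish. At Stat5b it ranged from 2.23 to 44.9, at Jak2 from 7.19 to 17.6 and at Socs3 from 6.57 to 21 in the same way. For Stat5a, Jak2 and Socs3 no alternative run changed the sign, nor did any for Tyk2, where promoters of 500 bp to each side gave no value because CDK6-WT replicate 2 had no peak there. At Stat5b the promoter of 500 bp to each side left out the region at the internal start. CDK6-K43M replicate 2 then stood at 2.44 in place of 70.1. The cause of the other sign changes was not tested. No percentile difference was recomputed with stricter, shortened or equal-length lists, or with peaks within 500 bp merged. How these differences depend on list length is therefore not known. With the replicate number as a block, the difference in peaks was 8 and no difference changed, because the pairs are balanced; 2 pairs cannot pass a threshold, and the labels do not say that a number marks a shared culture or day. Depth is known only as reads at the summit, so a region without a peak in a list was below that list's threshold and is not shown to be unoccupied.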

Other observations

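The cytokine receptor promoters are given by their order in the replicate numbers, a split made after the values were seen and not tested. Of 13 receptor genes with a promoter peak in every list, 7 had both replicate 2 percentiles above both replicate 1 percentiles and 4 had both below, beside 10.7% and 69% of protein-coding genes. Among 11 other negative regulators 0 had replicate 2 above and 10 had it below. Il6ra, the IL-6 receptor alpha chain, stood at 25.3 and 22.8 in the replicate 1 lists of CDK6-WT and CDK6-K43M and at 97.3 and 97.5 in the replicate 2 lists. Il10ra stood at 42.5 and 65.3 in replicate 1 and at 95.3 and 95.7 in replicate 2. Il7r, the receptor chain for the main growth cytokine of early B cells, stood at 44.6 and 79.0 in replicate 1 and at 96.5 and 97.1 in replicate 2. Crlf2 ran the other way, at 96.3 and 97.6 in replicate 1, with 0.279 in CDK6-WT replicate 2 and no promoter peak in CDK6-K43M replicate 2. The labels do not say what the replicate numbers stand for, and the cause was not tested.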
